A study of Mus musculus with 75 samples.

Results

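Replicative senescence (RS) of mouse skin fibroblasts was followed here at the distal chromatin regions that were open in every ATAC-seq sample. Overlapping peaks of all 13 ATAC-seq samples, on chromosomes 1 to 19 and X, were merged into 306843 regions. The members were chosen by the peak calls of all 13 samples, as the regions that overlapped a peak in every sample and lay more than 1000 bases from every RefSeq transcription start site. There were 75933 such distal regions, out of 94647 regions present in every sample and 274960 distal regions in all. Their number and their presence are thus a description and were not tested.

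The cells were skin fibroblasts of 2-month-old female C57BL/6 mice, untreated, cultured and split at a ratio of 1:3 at each passage (P). ATAC-seq, which maps open chromatin by the insertion of a transposase, was deposited for 4 samples at P1 and for 3 at each later passage (P3, P5 and P7), and RNA-seq for 4 libraries at each of the 4 passages. The study asked how chromatin and transcription change as the cells approach RS, from P1 to P7. The sources do not say whether the numbered replicates came from separate mice or cultures, so p-values measure the spread between these samples, which may be technical. All groups are bulk primary cultures, in which fewer cells of a type and less opening or RNA per cell cannot be told apart.

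Distal open regions are mostly enhancers and insulators. Enhancers are bound by transcription factors, such as AP-1, TEAD and RUNX in fibroblasts, that open the chromatin and act on genes over a distance, whereas CTCF marks insulators and the anchors of chromatin loops. AP-1 factors are dimers of FOS and JUN proteins that respond to growth factors and stress, TEAD factors are the DNA partners of the Hippo pathway coactivators YAP and TAZ, and EBF factors take part in the identity of several mesenchymal and blood cell types.

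The opening of a region was read as its percentile. In each sample, the 94647 regions present in every sample were ranked by the highest -log10 p that the peak caller gave to a peak within the region, so that 100 is the strongest region and 0 the weakest. This scale is relative within a sample, and a rise of some regions is necessarily a fall of others. Width is the number of bases that the peaks of a sample covered in the region. A region was called in percentile with an adjusted p under 0.05 (limma) over all 94647 regions and a difference of over 10 percentile points, and in width with an adjusted p under 0.05 and a change of over 1.5 times.

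The following 201-base sequences, centred on the summit of 7 members and named after the nearest gene, show the letters that the results below turn on. They are from the RefSeq assembly GRCm38, + strand, 5′ to 3′, and the capitals mark every match to the 8 motifs searched, on either strand. The first 3 were chosen after their values were seen. They show a change at P3 (the CTCF core, Samd5) or at P7 (EBF, Ppp2r5c, and AP-1, Slco3a1). Each had the largest such change among the members considered, which held its motif, lay outside exons and had a tested gene within 100 kb. The other 4 are among the largest rises (Setd6 and Vwa8) and falls (Ntm and Lrp12) from P1 to P7.
Samd5 region, CTCF and AP-1, chr10:9575678-9575878: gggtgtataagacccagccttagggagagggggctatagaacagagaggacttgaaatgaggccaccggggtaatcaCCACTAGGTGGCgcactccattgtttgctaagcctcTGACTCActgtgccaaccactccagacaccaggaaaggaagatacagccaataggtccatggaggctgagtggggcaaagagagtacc
Ppp2r5c region, TEAD and EBF, chr12:110520349-110520549: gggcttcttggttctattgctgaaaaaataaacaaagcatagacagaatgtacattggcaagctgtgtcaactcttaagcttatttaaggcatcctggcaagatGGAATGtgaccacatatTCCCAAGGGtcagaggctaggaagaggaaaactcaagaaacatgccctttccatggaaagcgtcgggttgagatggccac
Slco3a1 region, AP-1, chr7:74619699-74619899: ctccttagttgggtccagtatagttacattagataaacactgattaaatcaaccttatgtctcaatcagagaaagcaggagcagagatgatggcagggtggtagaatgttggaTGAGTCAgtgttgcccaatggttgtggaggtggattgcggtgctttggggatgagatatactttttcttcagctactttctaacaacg
Setd6 region, AP-1, chr8:95732095-95732295: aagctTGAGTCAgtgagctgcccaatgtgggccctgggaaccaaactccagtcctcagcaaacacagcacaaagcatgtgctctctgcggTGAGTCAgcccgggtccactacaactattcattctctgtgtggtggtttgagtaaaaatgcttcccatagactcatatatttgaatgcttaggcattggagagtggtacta
Vwa8 region, AP-1, chr14:78962018-78962218: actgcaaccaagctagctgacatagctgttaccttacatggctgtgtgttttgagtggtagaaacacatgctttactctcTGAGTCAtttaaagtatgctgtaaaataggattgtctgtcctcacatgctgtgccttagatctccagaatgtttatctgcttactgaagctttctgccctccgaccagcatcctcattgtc
Ntm region, AP-1, chr9:30005765-30005965: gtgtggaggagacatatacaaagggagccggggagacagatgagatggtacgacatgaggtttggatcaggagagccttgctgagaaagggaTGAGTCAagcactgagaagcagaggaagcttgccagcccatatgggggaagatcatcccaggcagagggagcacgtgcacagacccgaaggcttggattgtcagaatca
Lrp12 region, RUNX, chr15:39921287-39921487: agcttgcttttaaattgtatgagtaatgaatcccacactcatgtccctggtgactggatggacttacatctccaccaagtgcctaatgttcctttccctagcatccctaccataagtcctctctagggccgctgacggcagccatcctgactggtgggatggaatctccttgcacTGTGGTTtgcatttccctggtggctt

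The CTCF core lay between 23 and 12 bases before the summit in the Samd5 region, which also holds the AP-1 letters 13 to 19 bases after it. The EBF match lay between 21 and 29 bases after the summit in the Ppp2r5c region, which also holds the TEAD letters 4 to 9 bases after it. In the Slco3a1 and Ntm regions, the AP-1 match covered bases 13 to 19 after the summit and bases 8 to 2 before it, respectively. The Setd6 region held 2 AP-1 matches. A match is a description and not a binding site, since no factor was mapped.

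The members formed a large and strong part of each peak list. They made up 36.2% to 55.9% of the merged regions present in a sample and 45.1% to 59.1% of the bases covered by its peaks. The number of distal regions fell from 56482 found in 1 sample to 9291 found in 8 samples, then increased to 13424 in 12 samples and 75933 in all 13. The median percentile among all peaks of a sample, averaged over the samples with a peak, was 68.7 for members and 42.0 for the regions that missed 1 sample, and their median lengths were 825 and 551 bases. These last regions are those just outside the rule, and 4046 of the 13424 (30.1%) missed P3 replicate 2. The rule itself favours strong peaks, and merging more peaks tends to lengthen a region, so these contrasts are also a description. At the other limit, 377 members lay 1001 to 1100 bases from a start site, with a median of 69.7, and 358 regions present in every sample lay 901 to 1000 bases away, with a median of 70.3.

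Most members were far from genes' starts but within genes. The median distance to a start site was 18332 bases, and 12075 members (15.9%) lay within 5000 bases, 27989 (36.9%) between 5000 and 20000, 29117 (38.3%) between 20000 and 100000 and 6752 (8.89%) farther away. The summit was intronic in 53.1%, exonic in 5.22% and intergenic in 41.7% of members. Their median GC content was 47.3% and they held 2.63 CpG sites per 201 bases on average, whereas the 18714 regions at start sites that were present in every sample had 59.7% and 12.2. Over 50% of the bases were soft-masked repeats in 4.62% of members and in 13.3% of the distal regions found in 1 sample.

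Matches to AP-1 were the most common of the motifs. The motif TGACTCA (AP-1) was found within 100 bases of the summit in 31.6% of members, against 22.1% of all merged regions, 11.2% of regions at start sites and 15.5% of distal regions found in 1 sample. The CTCF core motif was found in 4.35% of members, against 2.21%, 2.08% and 0.611%, respectively. For CATTCC (TEAD), the shares were 23.4% of members and 19.6% of all merged regions. TGTGGTT (RUNX) had 10.4% and 9.41%, CCCNNGGGA (EBF) 5.03% and 4.12%, and TAATTA (LHX) 4.51% and 4.46%. The letters of E2F sites (TTCCCGC or TTCGCGC, and TTGCCGC or TTGGCGC) and of ETS sites (CCGGAAGT) were found in 1.72% and 0.290% of members and in 9.75% and 4.57% of regions at start sites. Among members, the AP-1 letters were in 51.2% of the strongest 10% by mean percentile and in 21.8% of the weakest 10%. For the CTCF core, the strongest 10% had 0.909% and the weakest 10% 3.03%, both below the share of all members.

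**Figure D1:**
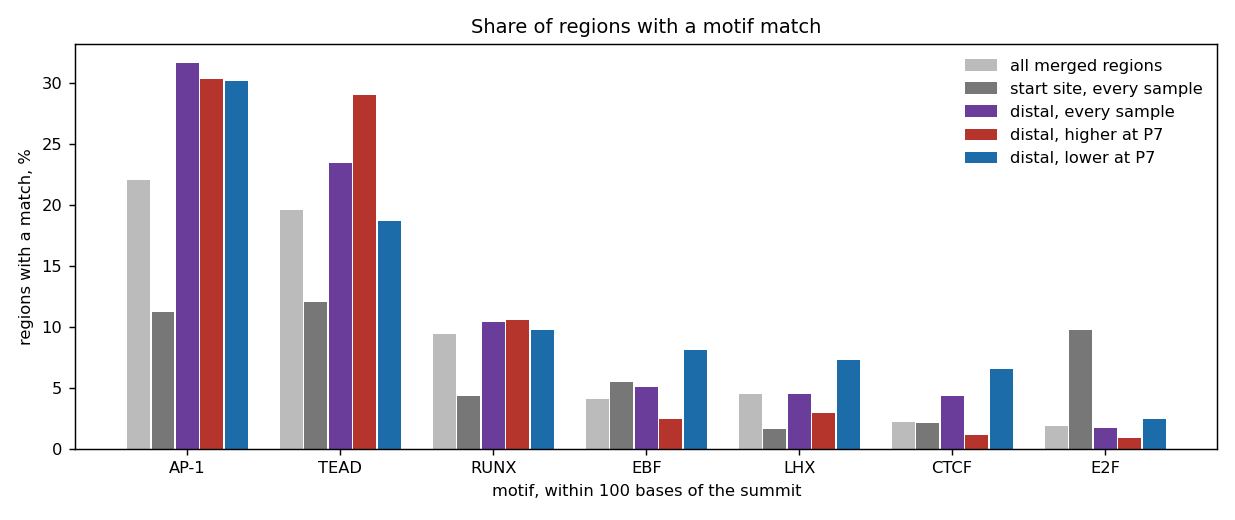
Share of regions (percent) with each of the motifs searched except ETS, within 100 bases of the summit, by set of regions. AP-1 matches are in 31.6% of the distal regions open in every sample, and the CTCF core is in 6.58% of the members lower at P7 than at P1 and in 1.13% of those higher.

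Most members ranged widely over the samples. The percentile of a member ranged over 34.7 points across the 13 samples in the median. It ranged over less than 10 points in 4083 members (5.38%), of which 3367 (82.5%) had a mean percentile over 90, and over more than 50 points in 12396 (16.3%). The scale ends at 100, which bounds the range of the strongest members. The SD between samples of a passage was 5.88 to 6.77 points in the median member.

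The 5 members with the highest mean percentile were nearest to Limd1, Gtpbp4, Myl12b, Pak3 and Jarid2. The first lay in an exon of Lars2, a mitochondrial leucyl-tRNA synthetase, at chr9:123461696-123462282, with a width of 500 to 587 bases and a fold enrichment over background of 24.0 to 32.7 in the 13 samples. Each of the 5, chosen by this value, was above the 99.9th percentile in every sample. A run of 30 bases shared with the mitochondrial genome was found in 4 of the 75933 members and in 0 of these 5. The members were not screened for regions of artificially high signal, so what such regions contribute to the highest percentiles was not tested.

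As a group, the members moved up slightly from P1 to P7. Their median percentile was 45.0 to 45.4 in the 4 samples of P1, 45.3 to 45.4 in P3, 46.2 to 46.6 in P5 and 47.2 to 47.8 in P7. The P7 samples were above all others on this scale. Ranked by fold enrichment, they had 49.1 to 49.7 and were above P1 (46.8 to 47.2) but overlapped P5 (47.7 to 49.2). Over the same passages, the median percentile of the regions at start sites was 71.1 to 73.1 in P1 and 60.8 to 64.1 in P7. Among the 10000 strongest regions of a sample, members were 53% to 55.0% in P1, 53.6% to 57.1% in P3, 57.9% to 62.5% in P5 and 62.6% to 65.8% in P7. The lowest share of P5 was above the highest of P3. The median -log10 p over members was itself 39.1 to 43.6 in P1, 19.2 to 31.7 in P3, 37.1 to 73.6 in P5 and 54.1 to 63.9 in P7. How deeply each ATAC-seq sample was sequenced is unknown, so the part of depth in these values was not tested.

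**Figure D2:**
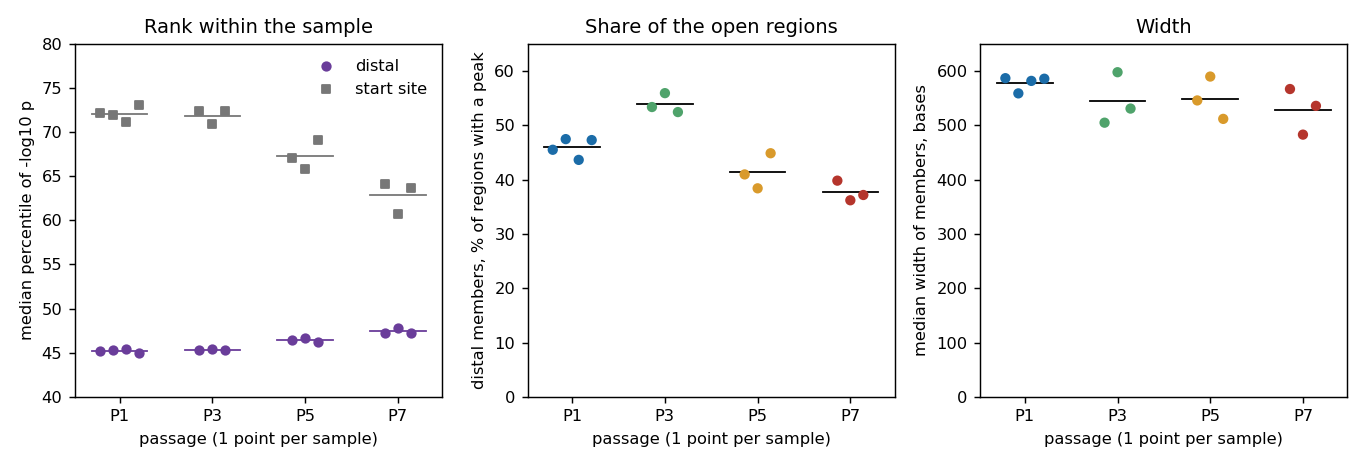
Median percentile of distal regions and of regions at start sites that were open in every sample, per ATAC-seq sample and passage. For the distal regions, their share of the regions with a peak (percent) and their median width in bases are also shown. Each point is 1 sample. The distal medians of P7 are 47.2 to 47.8 and lie above those of P1, and the medians at start sites are lower at P7 than at P1.

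Under this small shift, many members changed places. At P7, 14547 members (19.2%) were higher than at P1 and 11267 (14.8%) were lower, where the background over all 94647 regions was 16.4% higher and 17.7% lower. Among the regions at start sites, 1018 were higher and 5525 lower. With percentiles taken among all peaks of a sample, 16704 members were higher and 3883 lower. Ranked by fold enrichment, 12001 were higher and 9663 lower, and the median difference of all members went from +0.77 points to −0.16. The direction of the median member therefore depends on the measure, whereas members called in each direction were found with all 3.

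In 17132 members (22.6%) every P7 sample was above every P1 sample, and in 13742 (18.1%) every one was below, where the background was 20.1% and 22.6%. Of the members called higher, 12930 (88.9%) did not overlap between P1 and P7, and of those called lower 9901 (87.9%). In the members called higher, the median percentile was 27.8 to 29.98 in P1, 46.9 to 47.7 in P3, 52.6 to 54.6 in P5 and 61.7 to 64.3 in P7. In those called lower it was 57.3 to 60.3, 42.1 to 43.6, 37.99 to 39.4 and 28.1 to 29.9. Since the P7 and P1 samples chose these sets, their values there are a description.

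The first passages held most of the calls between neighbouring passages. At P3, 8867 members were higher and 8495 lower than at P1, where the background was 10.4% and 10%. At P5, 3595 were higher and 2038 lower than at P3 (background 3.98% and 3.18%). At P7, 1970 were higher and 1621 lower than at P5 (background 2.20% and 2.53%). With percentiles among all peaks of a sample, these counts were 4614 and 13049, 13777 and 212, and 171 and 208, so that the split of each step moved and that of the first and last steps turned. P1 had 4 samples and the other passages 3, and the first comparison also covers the largest change in markers of other cells, given with the motifs below. The calls of the last 2 steps depend on single samples. Without P5 replicate 2, the counts of P5 against P3 were 1483 higher and 671 lower, and without P5 replicate 3 they were 2299 and 1132. The lower count was 1334 without P5 replicate 1, 1300 without P3 replicate 1 and 1158 without P3 replicate 3. For P7 against P5, there were 632 higher and 740 lower without P7 replicate 2 and 1030 and 869 without P7 replicate 3. Without P5 replicates 1, 2 or 3 in turn, there were 1177, 1026 and 980 higher and 814, 788 and 822 lower.

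The comparison of P7 with P5 shares no sample with that of P3 with P1. Of the 8867 members higher at P3, 289 (3.26%) were higher at P7 than at P5 and 207 (2.33%) lower. Of the 8495 members lower at P3, 255 (3.00%) were higher and 211 (2.48%) lower. The 58571 members not called at P3 had 1426 (2.43%) higher and 1203 (2.05%) lower. A member's direction at the first step thus did not mark a clear direction at the last.

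Widths followed the passage less than percentiles did. The median width of a member was 559 to 587 bases in P1, 505 to 598 in P3, 512 to 590 in P5 and 483 to 567 in P7, and these ranges overlapped. At P7, 1733 members were wider and 4198 narrower than at P1, where the background was 1.94% wider and 6.65% narrower. This split turned when the width was divided by the sample's median, with 4334 wider and 1818 narrower. Without P7 replicate 2, which had the lowest median width, 1039 members were wider and 1718 narrower, without P7 replicate 3 930 were wider, and without P1 replicate 1 2747 were narrower. Of the members higher in percentile, 1377 were wider and 87 narrower, and of those lower, 2 were wider and 1925 narrower. Both measures come from the same peaks, with a correlation of 0.594 between their changes over the 75933 members.

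Members with the CTCF core lost rank at P3 and stayed low in this ranking. Their median percentile was 43.1 to 46.3 in P1, 35.3 to 37.7 in P3, 36.8 to 39.8 in P5 and 36.8 to 37.6 in P7. No sample of the later passages reached the lowest P1 sample. Of the 3301 members with the core, 17.2% were lower at P3 than at P1 and 0.788% higher, against 11.2% and 11.7% of all members. At P7, 22.4% were lower than at P1 and 4.998% higher, against 14.8% and 19.2% of all members. Ranked by fold enrichment, the P3 samples were again below those of P1 (39.3 to 41.2 against 47.2 to 51.6), but the P5 samples, at 41.4 to 47.5, overlapped them. Among all peaks of a sample, the medians of members with the core were 67.6 to 71.6 in P1, 57.4 to 59.4 in P3 and 68.3 to 71.4 in P7, so that P7 overlapped P1 on this scale, on which all members went from between 68.4 and 71.1 at P1 to between 74.1 and 77.3 at P7.

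The region nearest Samd5, in an intron of this gene at chr10:9575586-9576033, is an extreme example, picked for the largest fall at P3 among the members considered. Its percentile was 65.2, 52.2, 51.6 and 41.3 in the P1 samples, 7.02, 10.02 and 8.14 in P3, 26.5, 45.1 and 22.3 in P5 and 29.4, 33.7 and 16.5 in P7. All P3 samples were below all others, and 1 sample of P5 overlapped P1. The difference of P3 from P1 was −44.2 points (SE 7.34, adjusted p = 0.000173).

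Members with the TEAD motif moved in the opposite direction over the same passages. Their median was 44.8 to 46.9 in P1, 51.9 to 52.1 in P3, 52.3 to 53.01 in P5 and 51.6 to 53.4 in P7. All samples from P3 on were above all P1 samples. Of these 17802 members, 18.3% were higher at P3 than at P1 and 7.12% lower. Among all peaks of a sample, the medians of P1 and P3 overlapped (69.6 to 70.7 and 67.7 to 70.1), while all members fell from between 68.4 and 71.1 to between 63.0 and 65.8. Members with the RUNX motif had 45.0 to 46.5 in P1, 48.7 to 50.2 in P3, 50.8 to 52.1 in P5 and 47.7 to 49.3 in P7, with 16.1% higher and 8.52% lower at P3. Among all peaks of a sample, the direction of the RUNX medians turned, with 69.3 to 71.1 in P1 and 65.9 to 68.8 in P3. On that scale, all P3 samples were below all P1 samples, as they were for all members. RUNX factors regulate mesenchymal and blood lineages.

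At the last step, the called members with the EBF motif were mostly lower and those with the AP-1 motif mostly higher. The EBF median was 49.8 to 51.4 in P1, 48.5 to 49.6 in P3, 48.2 to 49.9 in P5 and 42.3 to 44.6 in P7, with all P7 samples below all others. At P7, 6.47% of the 3818 members with it were lower than at P5 and 0.812% higher, against 2.13% and 2.59% of all members. The values were similar when ranked by fold enrichment (48.7 to 49.7 in P5 and 42.6 to 44.6 in P7), whereas the 2 passages overlapped among all peaks of a sample (73.1 to 75.9 and 72.6 to 74.5). For the 23994 members with the AP-1 motif, the median was 52.99 to 56.1 in P1, 52.9 to 55.8 in P5 and 55.4 to 58.7 in P7, which overlapped, and 3.49% were higher at P7 than at P5 and 1.81% lower. Of the members with the RUNX motif, 4.04% were lower at that step and 1.53% higher.

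Among the members called at P7 against P5, the AP-1 letters were in 42.5% of those higher and 26.8% of those lower. The EBF letters were in 1.57% and 15.2%, the RUNX letters in 6.14% and 19.7%, and the TEAD letters in 19.4% and 31.6%. At P3 against P1, the CTCF core was in 0.293% of those higher and 6.70% of those lower, and the TEAD letters in 36.7% and 14.9%. The TEAD letters were thus more common in the members higher at the first step and in the members lower at the last.

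The intronic region in Ppp2r5c, a regulatory subunit of protein phosphatase 2A, at chr12:110519653-110520796 holds an EBF and a TEAD match. It was at 22.8, 19.4, 40.7 and 53.02 in P1, 49.6, 57.4 and 37.9 in P3, 64.1, 43.3 and 64.3 in P5 and 6.94, 25.3 and 5.26 in P7. P7 was below P3 and P5 but overlapped P1. The difference of P7 from P5 was −44.7 points (SE 9.06, adjusted p = 0.00671). The intergenic region at chr7:74619327-74620095, 64547 bases from the start of Slco3a1, a transporter gene, holds an AP-1 match. It was at 10.1, 26.6, 36.6 and 34.0 in P1, 30.6, 49.5 and 28.1 in P3, 31.6, 28.5 and 6.26 in P5 and 60.9, 79.96 and 67.3 in P7. All P7 samples were above all others, and P7 exceeded P5 by 47.3 points (SE 8.74, adjusted p = 0.00368). Both regions were picked for the largest change of their kind, so their sizes do not stand for the other members with these motifs.

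**Figure D3:**
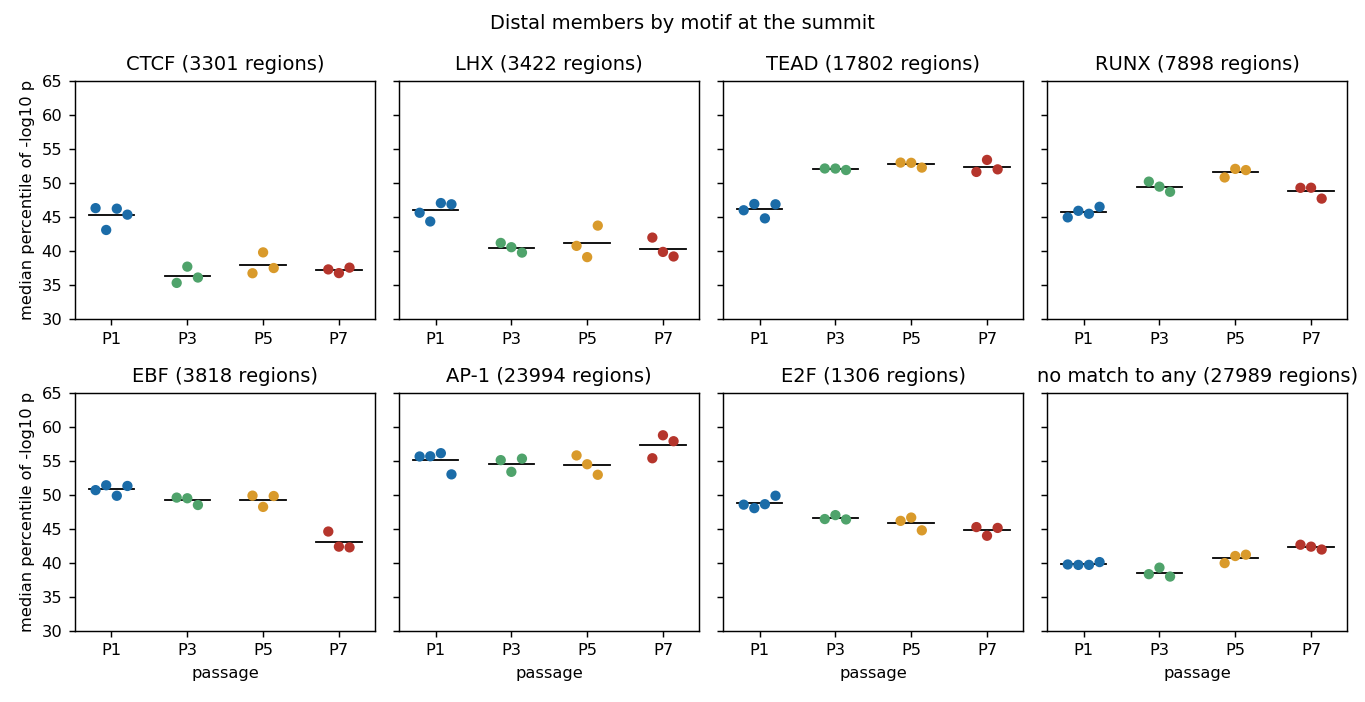
Median percentile of distal regions open in every sample that hold a motif, or none of the 8 searched, per ATAC-seq sample and passage. Each point is 1 sample. CTCF medians are 43.1 to 46.3 at P1 and 35.3 to 37.7 at P3, TEAD medians are 44.8 to 46.9 and 51.9 to 52.1 at these passages, and EBF medians are 42.3 to 44.6 at P7. Among all peaks of a sample, the TEAD medians of P1 and P3 overlap, as do the EBF medians of P5 and P7. The RUNX medians of P3 are below those of P1 on that scale.

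The other motifs were compared between P1 and P7. Members with the LHX letters had 44.4 to 47.1 in P1 and 39.2 to 42.0 in P7, and 24.1% of them were lower at P7 and 12.5% higher. Those with the E2F letters had 48.0 to 49.9 and 44.0 to 45.2, with 21.4% lower and 10.2% higher. Among all peaks of a sample, neither was lower at P7, with 68.4 to 72.1 and 71.1 to 73.1 for LHX and 70.6 to 72.97 and 72.97 to 75.3 for E2F. The 220 members with the ETS letters had 28.2% lower and 7.27% higher. In the 27989 members with none of the 8 motifs, 14.6% were lower and 19.8% higher, close to the share over all members.

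Base composition moved with the same contrast. At P7, 22.5% of members with less than 40% GC were higher than at P1 and 13.8% lower. At 60% GC or more, 4.68% were higher and 26.4% lower. Within the 41552 members of 40% to 50% GC, of which 21.8% were higher and 13.2% lower, those with the CTCF core had 5.24% higher and 24.1% lower, those with the TEAD letters 26.7% and 10.4%, and those with the EBF letters 10.9% and 22.9%. The differences between motifs were thus also present within 1 class of GC content.

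Markers of most other cell types looked at went down most from P1 to P3, beside the changes at CTCF and TEAD matches. The summed RNA level of 6 macrophage markers was 279 to 427 CPM (counts scaled to a common library total) in P1, 39.2 to 55.8 in P3 and 33.6 to 48.7 in P7, and 5 of 6 were lower at P7. Of 4 endothelial markers, it was 137 to 153 in P1, 33.9 to 39.3 in P3 and 5.57 to 8.53 in P7, and 4 of 4 were lower. Keratinocyte markers had 43.9 to 307 in P1 and 1.37 to 2.76 in P3, with 4 of 5 tested lower at P7 and Krt14 at 0 in all P7 libraries. Skeletal muscle markers had 117 to 180 in P1, 51.8 to 57.8 in P3 and 38.6 to 109 in P7. Of these, 4 of 5 were lower at P7, with Myod1 and Myog at 0 in all P7 libraries, while Acta1 had 37.4 to 107 in P7. Of the adipocyte markers, 1 of 3 was tested, and it was lower, with a sum of 44.3 to 58.2 in P1 and 5.52 to 6.38 in P3. Fibroblast markers were high throughout, at 23618 to 25503 in P1 and 36327 to 39160 in P7, but 3 of 10 were lower at P7 (Pdgfra, Dcn and Lum, with log2 fold changes of −1.10, −1.81 and −1.96) and 2 higher. Schwann cell and melanocyte markers did not go down at P3, with 63.8 to 73.7 in P1, 75.8 to 90.2 in P3 and 57.9 to 133 in P7. The members nearest to the macrophage, endothelial, keratinocyte, muscle and adipocyte markers were 29, 50, 15, 14 and 11. Of these, 4, 6, 4, 3 and 2 were higher at P7 (13.8%, 12%, 26.7%, 21.4% and 18.2%). In turn, 4, 6, 3, 2 and 1 were lower (13.8%, 12%, 20%, 14.3% and 9.09%). Of 27 nearest to Schwann cell and melanocyte markers, 3 were higher (11.1%) and 7 lower (25.9%). Beside these are 19.2% higher and 14.8% lower of all members, and 16.4% and 17.7% of all regions fitted. The part of other cells in the changes of the members was not tested.

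The largest rises began at P3. Of the 8 members with the largest rise from P1 to P7 without overlap, the region in an intron of Bag1, a cochaperone of HSP70, at chr4:40941699-40942856 was at 2.22, 18.3, 6.31 and 35.0 in P1, 83.6, 90.4 and 88.2 in P3, 94.3, 92.0 and 88.9 in P5 and 97.6, 96.5 and 96.2 in P7. Every later sample was above every P1 sample, and P7 exceeded P1 by 81.3 points (SE 5.65, adjusted p = 5.31e-09). The region in an intron of Parm1, a mucin-like membrane protein, at chr5:91532685-91533617 was at 3.28, 5.51, 8.84 and 27.0 in P1, 76.8, 90.7 and 89.1 in P3, 84.3, 88.7 and 85.4 in P5 and 91.1, 94.0 and 91.7 in P7, which is 81.1 points higher at P7 (SE 5.51, adjusted p = 5.31e-09). The groups of P1 and P7 are far apart in both. Parm1 RNA increased as well, from 15.5 ± 1.03 to 68.0 ± 24.4 CPM (SD, n = 4), a log2 fold change of 2.13 (adjusted p = 7.36e-08), and Bag1 RNA had a log2 fold change of 0.42, below the 2-fold limit.

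The 2 rising members with AP-1 letters printed above lay between P1 and P7 in every P3 and P5 sample. The region 16025 bases from Setd6, a lysine methyltransferase gene, in an intron of Cnot1 at chr8:95731938-95732583, was at 6.72, 3.21, 19.7 and 6.54 in P1, 30.6, 40.6 and 61.9 in P3, 62.9, 52.9 and 67.7 in P5 and 78.1, 89.8 and 93.3 in P7. It was 78.0 points higher at P7 than at P1 (SE 7.36, adjusted p = 1.09e-07). The region in an intron of Vwa8 at chr14:78961927-78962589 was at 10.1, 6.42, 17.6 and 15.8 in P1, 67.7, 34.3 and 62.5 in P3, 70.2, 65.3 and 54.9 in P5 and 82.4, 88.4 and 89.0 in P7, a rise of 74.1 points (SE 7.12, adjusted p = 1.37e-07). In both, P3 and P5 overlapped, and the step from P3 to P5 was not called (adjusted p = 0.191 and 0.528). Each P7 sample was above every P5 sample in both, but the step from P5 to P7 alone was not called (adjusted p = 0.0535 and 0.0744). The other 4 of the 8, nearest to Septin4, Ccdc71l, 4932438A13Rik and Mfsd6, rose by 81.2, 80.6, 75.5 and 73.5 points.

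The largest falls had different time courses. The intergenic region at chr9:30005478-30006246, 42209 bases from the start of Ntm, a neural cell adhesion molecule, was at 76.8, 71.8, 85.8 and 74.9 in P1, 16.6, 1.44 and 17.9 in P3, 12.2, 16.01 and 18.3 in P5 and 4.25, 5.51 and 22.2 in P7. It was low from P3 on, and its difference of P7 from P1 was −66.7 points (SE 6.93, adjusted p = 3.04e-07). Ntm RNA was 6.01 ± 1.00 CPM in P1 and 1.88 ± 0.792 in P7 (SD, n = 4), with a log2 fold change of −1.67 (adjusted p = 3.24e-06), although it was 11.3 CPM on average in P3. The region in an intron of Lrp12, a receptor of the LDL receptor family, at chr15:39920966-39921752 was at 80.4, 83.0, 59.4 and 65.2 in P1, 47.7, 32.0 and 28.1 in P3, 51.9, 56.3 and 55.0 in P5 and 8.44, 7.42 and 5.60 in P7. It fell further at the last step, with a difference of P7 from P5 of −47.2 points (SE 7.45, adjusted p = 0.00128), while Lrp12 RNA had a log2 fold change of 0.00 from P1 to P7.

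**Figure D4:**
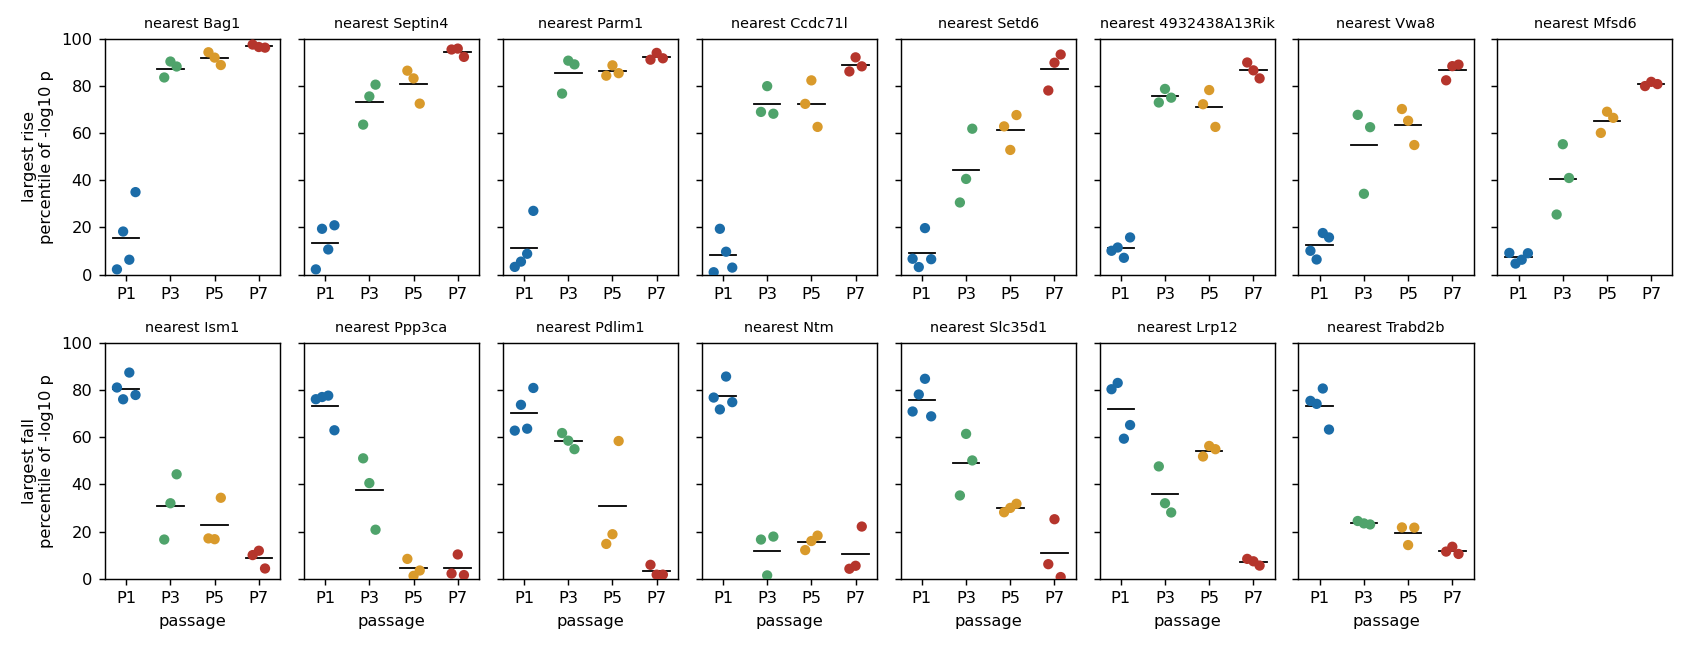
Percentile, per ATAC-seq sample and passage, of members with the largest rises and falls from P1 to P7, each named after its nearest gene. Each point is 1 sample. The Bag1 region is at 2.22 to 35.0 at P1 and at 96.2 to 97.6 at P7, and the Lrp12 region is at 59.4 to 83.0 at P1 and at 5.60 to 8.44 at P7.

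Other members with the largest falls were nearest to Ism1, Ppp3ca, Pdlim1, Slc35d1 and Trabd2b, with differences of −71.9, −68.8, −67.1, −65.0 and −61.5 points. The Ppp3ca region, near the gene of a calcineurin catalytic subunit, was at 62.98 to 77.7 in P1, 20.8 to 51.1 in P3 and 1.25 to 8.43 in P5, and was also lower at P5 than at P3 (adjusted p = 0.0121). Trabd2b, which encodes a protease that inhibits Wnt proteins, had lower RNA at P7, with 32.5 ± 0.512 CPM in P1 and 7.63 ± 2.27 in P7 (SD, n = 4) and a log2 fold change of −2.09. Of the 16 genes nearest to these rises and falls, RNA was called higher for Parm1 and lower for Ntm and Trabd2b.

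Among the widest members, 1 was higher at P7 than at P1. The region 15203 bases from the start of Thbs1, the matrix protein thrombospondin 1, at chr2:118127079-118130240 had a mean width of 2727 bases. Its percentile was 27.6, 27.2, 38.2 and 41.8 in P1, 68.2, 68.2 and 70.05 in P3, 69.9, 68.2 and 67.2 in P5 and 60.8, 48.4 and 58.8 in P7, and it was 22.3 points higher at P7 than at P1 (SE 5.71, adjusted p = 0.00359). Every later sample was above every P1 sample. Thbs1 RNA went from 7255 ± 1019 to 19131 ± 2069 CPM (SD, n = 4), a log2 fold change of 1.40.

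The members were spread unevenly over genes. They were nearest to 13959 genes, with a median of 3 per gene, 3708 genes with 1 and 573 with over 20. The counts of called members below are to be read beside 19.2% higher and 14.8% lower of all members. Over all regions fitted, these shares were 16.4% and 17.7%. The most members were nearest to Pde4d, a cAMP phosphodiesterase, with 79 members, of which 20 were higher at P7 and 8 lower. Next came the growth regulator Myc with 65 (19 higher and 11 lower), Lpp and Rbms3 with 61 each, Trib2 with 60, the adhesion molecule Cdh11 and Zfp608 with 59 each, the nuclear receptor Rora with 58 (17 higher and 4 lower), Lrmda with 55 (18 higher and 2 lower) and Flrt2 with 54. None of these 10 genes changed more than 2-fold in RNA, and Pde4d was the nearest to it, with 25.6 ± 4.66 CPM in P1 and 50.6 ± 2.30 in P7 (SD, n = 4) and a log2 fold change of 0.98. These counts set no limit of distance. The median distance of the members was between 57180 bases (Lpp) and 435708 bases (Cdh11) for these 10 genes.

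Around genes of the RS and fibroblast lists, members moved in both directions. The counts are to be read beside all regions fitted, of which 16.4% were higher and 17.7% lower at P7, and all members, with 19.2% and 14.8%. No limit was set on the distance between a member and its nearest gene here, so many members lay over 100 kb away. The median distance was 9253 bases for Cdkn1a, but 115620 for Cdkn2b, 130800 for Cxcl12, 151493 for Thbs1, 165164 for Fn1 and 314012 for Ebf1. Of the 38 members nearest to 6 cell cycle inhibitors, 5 were higher at P7 (13.2%) and 10 lower (26.3%), and 3 of the 6 genes were higher in RNA and 1 lower. Cdkn2b, which encodes the CDK inhibitor p15, had 18 of these members, 1 higher and 7 lower, while its RNA increased from 14.7 ± 3.22 to 54.5 ± 6.21 CPM (SD, n = 4), a log2 fold change of 1.89 (adjusted p = 1.71e-08). Cdkn1a, which encodes p21, had 4 members, 1 of them lower, and a log2 fold change of 1.53 in RNA. Named after their values were seen, Cdkn2a had 1 of 3 members higher and none lower, with a log2 fold change of 4.79 in RNA, and Cdkn2c had 3 of 3 higher, with −1.42. Members and RNA thus moved together for some of these genes and apart for others.

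Of 63 members nearest to AP-1 genes, 14 were higher (22.2%) and 6 lower (9.52%), and none of 9 tested genes was called in RNA. The subunit gene Fosl2 had 20 members, 5 higher and none lower, and a log2 fold change of −0.06 in RNA. Fos had 11 members, 2 higher and 1 lower, and Atf3, named after its values were seen, had 6, 4 higher and 1 lower. Their log2 fold changes in RNA were 0.99 (adjusted p = 2.12e-05) and 0.93 (adjusted p = 0.00221), just below the 2-fold limit. Of 118 members nearest to genes of TEAD factors and the Hippo pathway, 18 were higher (15.3%) and 24 lower (20.3%), and 3 of 12 genes were higher in RNA and 1 lower. Ccn2, a YAP target that encodes a matrix signalling protein, had 13 members, 3 higher and 1 lower, and its RNA went from 309.9 ± 106 to 1098 ± 223 CPM (SD, n = 4).

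Of 252 members nearest to 14 matrix genes, 44 were higher (17.5%) and 33 lower (13.1%), and 8 genes were higher in RNA and 3 lower. Thbs1 had 46 of these members, 13 higher and 5 lower. Fibronectin (Fn1) had 26, 2 higher and 2 lower, with a log2 fold change of 2.35 in RNA. The 250 members nearest to 12 mesenchymal transcription factors had 47 higher (18.8%) and 28 lower (11.2%), and 1 factor was lower in RNA. Of these, Runx1 had 50 members, 11 higher and 4 lower, with a log2 fold change of −0.76 in RNA, and Ebf1 had 48, 10 higher and 3 lower, with −0.12.

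Of 157 members nearest to 15 genes of the secretory phenotype of senescent cells, 34 were higher (21.7%) and 18 lower (11.5%), and 5 genes were higher in RNA and 3 lower. The chemokine gene Cxcl12 had 41 members, 10 higher and 6 lower, but its RNA decreased from 492.8 ± 103 to 82.0 ± 17.6 CPM (SD, n = 4), a log2 fold change of −2.59. Of 54 members nearest to 15 E2F and replication genes, 10 were higher (18.5%) and 12 lower (22.2%), while 10 of the 15 genes were lower in RNA and 1 higher. E2f7, a repressor of the E2F family, had 8 members, none higher and 1 lower, and a log2 fold change of −3.23. The 7 lists were chosen with results of these data known, and the RNA calls are beside a background of 8.10% of the 13442 genes tested higher and 13.3% lower.

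RNA was next compared with the members over all genes. Of the 9636 tested genes that were nearest, within 100 kb, to at least 1 member, 8.34% were higher in RNA and 14.0% lower at P7. Of the 2907 with members higher and none lower at P7, 8.22% were higher and 12.5% lower. Of the 1702 with members lower and none higher, 8.17% were higher and 17.5% lower. The 3071 genes with no called member had 8.43% and 13.8%. The share of genes higher in RNA was thus between 8.17% and 8.43% in these sets, near the background of 8.10%.

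The shares moved apart where several members agreed. Of 442 genes with at least 3 members higher and none lower, 11.99% were higher in RNA and 10.9% lower, and of 218 genes with at least 3 lower and none higher, 5.96% and 23.9%. With at least 5 higher, 12 of 83 genes were higher in RNA (14.5%) and 5 lower (6.02%). With at least 5 lower, 0 of 32 were called higher and 9 lower (28.1%). These counts are nested, and most genes in each set were not called in RNA. The 0 depends on the 2-fold limit. Spry2, with 5 of 7 members lower, and Itga5, with 5 of 8 lower, had log2 fold changes of 0.997 and 0.83 in RNA (edgeR, adjusted p = 6.17e-07 and 6.08e-07).

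**Figure D5:**
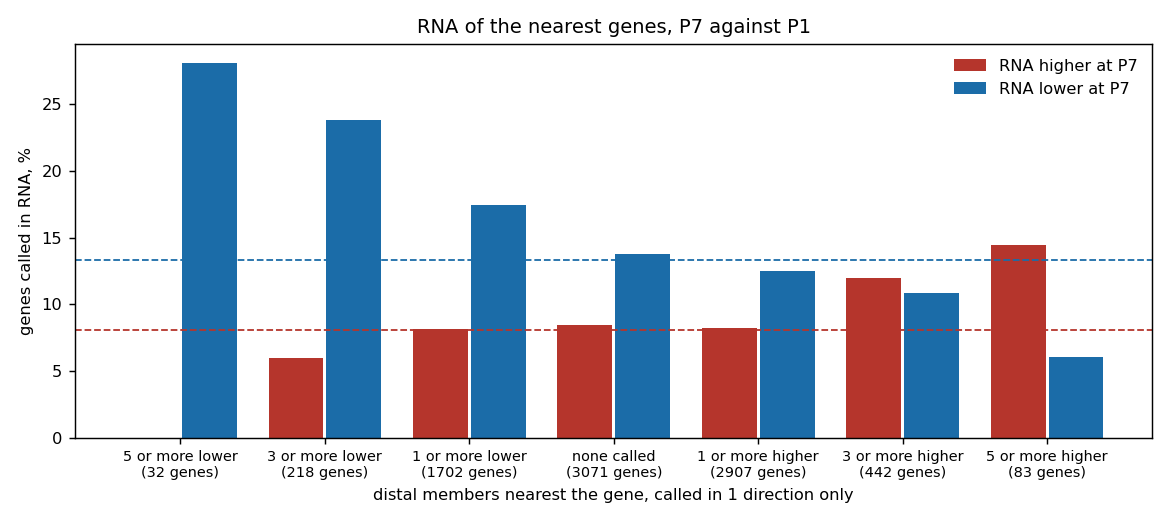
Share of genes (percent) called higher or lower in RNA at P7 against P1, by how many of the nearest distal regions were called in 1 direction. The share of genes lower in RNA is 28.1% for genes with at least 5 regions lower and none higher, against 13.3% of all 13442 genes tested.

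Examples of such genes, chosen after their values were seen, include Ptgs2, the cyclooxygenase COX-2, with 6 of 13 members within 100 kb higher at P7 and RNA of 19.7 ± 5.50 CPM in P1 and 256 ± 49.8 in P7 (SD, n = 4), a log2 fold change of 3.70. The collagen receptor Itga11 had 6 of 15 members higher and a log2 fold change of 2.54, and the phosphodiesterase Pde10a 8 of 25 and 1.498. Among the genes with members lower, Cd93, a receptor of endothelial and myeloid cells, had 7 of 17 lower and went from 11.4 ± 2.12 to 1.67 ± 0.619 CPM, a log2 fold change of −2.76. The cadherin Cdh4 had 5 of 8 lower and a log2 fold change of −4.05. Most markers of the cell types in which Cd93 is found also went down from P1 on, and the part of these cells in its values was not tested. Rere, with 10 of 30 members higher, had a log2 fold change of −0.68, opposite to its members. Ets1, with 9 of 20 lower, had −0.40, which is in their direction but below the 2-fold limit.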

How the data were processed

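ATAC-seq peak lists of 13 samples and RNA-seq counts of 16 libraries were analysed. Per the labels' processing notes and the methods, the authors trimmed reads with Trimmomatic 0.39, aligned RNA reads with HISAT2 2.2.1 and ATAC reads with Bowtie2 2.3.5.1 to mm10, counted genes with HTSeq 0.12.4 without strand and called peaks in each sample with MACS2. The deposited RNA values are raw counts per gene. The deposited peak lists give the fold enrichment (a ratio) at the summit over the local background, and the -log10 p and -log10 q, all computed within each sample. They hold no read counts, so ATAC depth is unknown. RNA totals were 13430229 to 15725823 counts per library.

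Peaks of chromosome Y (12 to 22 lines per sample) were left out. Regions were merged where peaks shared at least 1 base, and compared with RefSeq GRCm38, the assembly of mm10. The percentile of the highest -log10 p and log2 width were fitted with limma 3.58.1 (eBayes with trend and robust) in R 4.3.3 over all 94647 regions and all 4 passages in 1 fit, with Benjamini-Hochberg adjustment. RNA was fitted with edgeR 4.0.16 (filterByExpr, TMM, quasi-likelihood test) over the 16 libraries, with calls at an adjusted p under 0.05 together with a fold change over 2; CPM is after TMM scaling. Genes were assigned by the nearest start site of a protein-coding transcript, so start sites of other transcripts can be closer. Counts per gene and per list had no limit of distance, whereas RNA over all genes was compared within 100 kb. The scripts were tested on simulated data.

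Named members were the 5 strongest, the 3 widest and the 8 largest rises and 8 largest falls without overlap between P1 and P7, 1 per nearest gene. Named genes were the 10 with the most members and the 3 with the most in each list; some of these are not reported here. The members, lists and tests were chosen with earlier results of these data known. Alternatives were other rankings, a replicate block, fewer samples, other filters, DESeq2 1.42.0 for RNA and a window of 50 bases on each side for motifs. Counts of knockdown and overexpression experiments and the methylation samples were not used here.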

Additional observations from a re-analysis of the deposited data

Results flagged for a closer look

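Of 124 groups of 4 samples, 7 held a sample far from the other 3, of which chance gives about 1 in 20. In P1, the lowest sample stood apart for the median percentile of members with the AP-1 motif (52.99, others 55.6 to 56.1), for the percentile of the region nearest Ppp3ca (62.98, others 76.1 to 77.7) and for the RNA of Ppp3ca (96.5 CPM, nearest others 108 to 110). The highest P1 sample stood apart for Fos RNA (10.05 CPM, nearest others 8.15 to 8.29). In P7, the lowest library stood apart for the RNA of Tead1 (279 CPM, nearest others 406 to 417), Fn1 (11359 CPM, nearest others 20413 to 21541) and Pde4d (47.2 CPM, others 51.4 to 52.2).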

How the results depend on the processing

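Of 244 alternatives, 195 kept a count within 1.5 times its reported value. The motif shares among the alternatives were instead held against the 95% confidence interval (Wilson) of the reported share, and all 8 lay outside it. With percentiles among all peaks of a sample, 3883 members were lower at P7 than at P1, 4614 higher and 13049 lower at P3 than at P1, 13777 higher and 212 lower at P5 than at P3, and 171 higher and 208 lower at P7 than at P5. Ranked by fold enrichment, P7 against P5 gave 756 higher and 532 lower. With 2 passages in the fit, P5 against P3 gave 1829 and 835, and P7 against P5 967 and 499. Width divided by the sample median gave 4334 wider and 1818 narrower, and without the limit of 1.5 times 7182 were narrower. Replicate numbers did not pair the samples (correlations of −0.08 to 0.26 for percentiles and −0.38 to 0.36 for RNA); with a replicate block, 1145 members were wider and 2338 narrower, 13619 higher and 10274 lower in percentile at P7 than at P1, and 1088 genes higher and 1804 lower in RNA. Leaving out 1 sample in turn gave, for P7 against P1, 11715 to 15001 higher, 8710 to 11710 lower, 930 to 1873 wider, 1718 to 5277 narrower, and in RNA 1087 to 1156 higher and 1790 to 1910 lower. Chosen after seeing the data, the same gave 6951 to 9096 higher and 6405 to 8722 lower for P3 against P1 (7171 and 6935 without P3 replicate 2), 1483 to 3724 and 671 to 2238 for P5 against P3, and 632 to 2322 and 740 to 2015 for P7 against P5. With at least 10 counts per gene, 1055 genes were lower in RNA. Requiring peaks over 50% of a region left 38280 members. With 50 bases on each side of the summit, motif shares were 3.90% for CTCF, 25.2% for AP-1, 15.4% for TEAD, 6.56% for RUNX, 2.86% for EBF, 2.14% for LHX, 0.921% for E2F and 0.145% for ETS. The sign of 23 of 24 differences in motif share between members higher and lower was kept with this window, the exception being AP-1 at P7 against P1. The causes were not tested, and the unknown ATAC depth limits what a missing peak shows.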
